A study of Mus musculus with 26 samples.

Results

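The comparison described here is of induced regulatory T cells (iTreg) made from naive CD4+ cells with TGFb, retinoic acid and vitamin C against iTreg made with TGFb and retinoic acid alone. It takes in 4 of the series' 26 RNA-seq samples, 2 libraries with vitamin C against 2 without, chosen by their labels and described over every gene of the count table. The cells came from spleen and lymph nodes of C57BL/6 Foxp3-eGFP reporter mice aged 5 to 6 weeks, in which eGFP marks cells that express Foxp3, the lineage factor of regulatory T (Treg) cells. Vitamin C was the one labelled difference between the groups. The labels give neither the doses nor the days of culture, and for these libraries they name no sort on eGFP. Values are set beside iTreg made with TGFb alone or with TGFb and vitamin C from reporter mice of the same description (n = 2 and 2), which share no library with the 4. They are also set beside Treg cells sorted ex vivo as CD4+eGFP+ cells at 3 weeks from Tet2fl/fl Tet3fl/fl Foxp3-eGFP mice with CD4-Cre (Tet2/3-deficient, n = 4) or without Cre (control, n = 4). CD4-Cre acts during T cell development in the thymus and so is not limited to Treg cells. Naive CD4+ cells and Th0 cells, activated through CD3 and CD28, 2 libraries each, entered the shared estimate of the spread. Apart from that, only their Igfbp4 level is given.

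TGFb switches on Foxp3 in activated naive CD4+ cells, and retinoic acid, a vitamin A derivative that acts through nuclear receptors, adds gut homing receptors and strengthens iTreg induction. Vitamin C (ascorbate) keeps the iron of Fe(II) and 2-oxoglutarate dependent dioxygenases reduced. That enzyme family includes the TET enzymes, which oxidise 5-methylcytosine on the way to its removal, the JmjC histone demethylases, and the prolyl hydroxylases of collagen and of hypoxia-inducible factors. In iTreg cells TET activity is known for demethylating regulatory elements of the Foxp3 gene.

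Total counts in the 4 libraries were 9986032 to 11640223. Levels below are CPM, counts per library scaled to a common total with TMM factors, which do not correct for gene length and are compared only within a gene. The 2 libraries with TGFb and retinoic acid differed from each other by more than any other pair among the cultured and naive cells, with a chi-square per degree of freedom of 11.0 against 4.86 to 6.78, and no pair was a copy. Nothing in the labels states whether the libraries of a group came from different animals or cultures, so p-values measure only a spread between libraries, which may be technical. For the cultured and naive cells that spread was pooled over 12 libraries of 6 groups. It may be smaller than the spread of the TGFb plus retinoic acid pair. RNA was from whole samples, so fewer cells of a type and less RNA per cell cannot be told apart. T cell identity genes summed to 4855 and 5193 CPM without vitamin C and 5042 and 5295 CPM with it. The retinoic acid labels could be checked on its induced genes. Cyp26b1, which degrades retinoic acid, was counted at 59.4 and 45.1 CPM without vitamin C and at 54.8 and 43.5 CPM with it, and at 0 in the 4 iTreg libraries made without retinoic acid.

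With vitamin C, 851 of 11287 genes tested passed the edgeR quasi-likelihood test at an adjusted p under 0.05 (Benjamini-Hochberg), which is 7.54%. Of these 487 were higher (4.31% of genes tested) and 364 lower (3.22%). These shares are the background for all counts of list members below. The median log2 fold change of all genes was -0.01, and 194 higher and 92 lower genes changed by at least 1 on the log2 scale. Among genes reaching a mean of 10 CPM, the largest rises were of the chemokine receptor gene Ccr6 and the imprinted genes Igf2 and Plagl1. Foxp3 itself rose 1.32-fold, but was not called in a fit of the 4 libraries alone. The largest falls included the growth factor receptor gene Kit, and genes of naive cells, cell division and glycolysis were among the 364. The number of calls depended on single libraries: 899 genes passed without TGFb plus retinoic acid library 1, 577 of them among the 851, 424 without its library 2, 460 without vitamin C library 1 and 438 without vitamin C library 2. Over all 11287 genes, both libraries with vitamin C lay above both without it in 22.1% and below both in 24.3%, so a lack of overlap is common here and is given below only as a description. Leaving out a library leaves its group with 1 sample, which is then assumed to vary like the other groups.

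**Figure D1:**
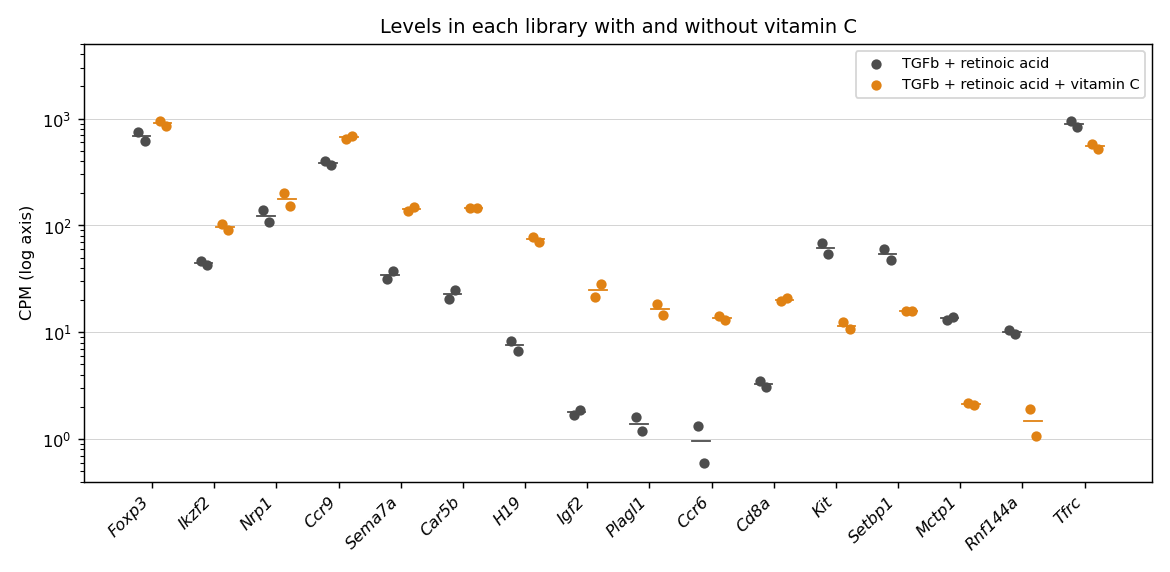
Levels of 16 genes in each library, as CPM on a log axis; points are libraries and short lines the mean of 2, grey for TGFb with retinoic acid and orange for the same with vitamin C. The 16 genes were chosen among those that passed and the groups do not overlap in them, as in 22.1% (higher) and 24.3% (lower) of all genes; levels run from Ccr6 near 1 CPM without vitamin C to Foxp3 at 620.1 CPM or more in every library.

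Among genes that reached a mean of 10 CPM in the higher group, Ccr6, the receptor for the chemokine CCL20 on Treg and Th17 cells, rose most. It was counted at 1.31 and 0.592 CPM without vitamin C and at 14.2 and 13.1 CPM with it, a 14-fold rise (3.81 ± 0.33 log2 fold change ± SE, edgeR, adjusted p = 6.88e-06). Igf2, which encodes insulin-like growth factor 2, was counted at 1.69 and 1.88 CPM without vitamin C and at 21.3 and 28.3 CPM with it and rose 13.9-fold (3.79 ± 0.37, adjusted p = 3.26e-05). H19, the noncoding RNA next to Igf2 that is expressed from the other parental allele, was counted at 8.34 and 6.71 CPM without vitamin C and at 77.8 and 70.2 CPM with it and rose 9.79-fold (3.29 ± 0.16). H19 and Igf2 thus rose side by side. Plagl1, an imprinted zinc finger factor gene, was counted at 1.59 and 1.18 CPM without vitamin C and at 18.5 and 14.4 CPM with it and rose 11.7-fold (3.55 ± 0.25, adjusted p = 7.19e-07). Car5b, a mitochondrial carbonic anhydrase, was the gene with the smallest p-value among those named. It was counted at 20.6 and 24.8 CPM without vitamin C and at 145 and 147 CPM with it (2.69 ± 0.12, adjusted p = 7.55e-09). Cd8a, the CD8 alpha chain, was counted at 3.47 and 3.06 CPM without vitamin C and at 19.5 and 20.8 CPM with it (2.62 ± 0.27). In each of these genes, which were picked for the size of their rise, both libraries with vitamin C lay above both without it.

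The other large rises included genes best known outside T cells. Adgre1, which encodes the macrophage antigen F4/80, was counted at 2.53 and 2.27 CPM without vitamin C and at 18.5 and 21.4 CPM with it (3.05 ± 0.28, edgeR, adjusted p = 7.98e-06). Cdh1 encodes E-cadherin, and it was counted at 6.47 and 5.13 CPM without vitamin C and at 25.4 and 30.9 CPM with it (2.27 ± 0.24). Sema7a, a membrane-anchored semaphorin, was counted at 31.9 and 37.2 CPM without vitamin C and at 136 and 148 CPM with it (2.04 ± 0.20). The junction protein gene Cgnl1 (3.32 ± 0.41), the neuronal ubiquitin ligase gene Trim9 (2.94 ± 0.26), the vesicular glutamate transporter gene Slc17a8 (2.49 ± 0.22), the mucin gene Muc1 (2.46 ± 0.21) and the Src family kinase gene Fgr (2.05 ± 0.21) were also among the 15 largest rises. No library left out ended the call of any of the 15.

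Among genes with a mean of 10 CPM or more without vitamin C, Rnf144a, an E3 ubiquitin ligase gene, fell most. It was counted at 10.6 and 9.68 CPM without vitamin C and at 1.9 and 1.08 CPM with it (-2.78 ± 0.31, edgeR, adjusted p = 4.16e-05). Mctp1, a membrane protein with calcium-binding C2 domains, was counted at 13.1 and 14 CPM without vitamin C and at 2.19 and 2.07 CPM with it (-2.67 ± 0.18). Kit, the receptor for stem cell factor, was counted at 69 and 53.8 CPM without vitamin C and at 12.4 and 10.7 CPM with it, a 5.34-fold fall (-2.42 ± 0.17, adjusted p = 7.19e-07). Setbp1, which encodes a partner of the SET protein, was counted at 59.8 and 47.7 CPM without vitamin C and at 15.9 and 15.9 CPM with it (-1.76 ± 0.16). Aqp9, a channel for water and glycerol, was counted at 12.9 and 15.3 CPM without vitamin C and at 2.38 and 3.07 CPM with it (-2.36 ± 0.30). In these 5, picked for their fall, both libraries with vitamin C lay below both without it. The inhibitory receptor gene Lilrb4a (-2.14 ± 0.27), the neurotrophin receptor gene Ntrk3 (-1.92 ± 0.24), the neuroserpin gene Serpini1 (-1.66 ± 0.15), the extracellular matrix gene Fbln1 (-1.53 ± 0.20) and the transcripts D8Ertd82e (-2.12 ± 0.20) and E130012A19Rik (-1.92 ± 0.13) also fell and kept their calls without each library. Ccr2, a receptor of inflammatory chemokines (-2.05 ± 0.42), Kirrel, an adhesion molecule (-1.96 ± 0.45), Pde3b, a cyclic nucleotide phosphodiesterase (-1.56 ± 0.27), and Hba-a2, an alpha globin (-2.30 ± 0.42), passed with all libraries. Those calls were lost without TGFb plus retinoic acid library 1 for Kirrel (adjusted p = 0.0982) and Pde3b (adjusted p = 0.074); without TGFb plus retinoic acid library 2 for Ccr2 (adjusted p = 0.123), Pde3b (adjusted p = 0.0597) and Hba-a2 (adjusted p = 0.109); without vitamin C library 1 for Ccr2 (adjusted p = 0.11) and Hba-a2 (adjusted p = 0.132); without vitamin C library 2 for Ccr2 (adjusted p = 0.164), Kirrel (adjusted p = 0.148), Pde3b (adjusted p = 0.0998) and Hba-a2 (adjusted p = 0.0664). Hba-a2 has a near-identical copy, Hba-a1, so its count is uncertain.

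Promoter windows of 3 genes that rose, Ccr6, Cd8a and Plagl1, and of the lowered Kit are printed because they differ in CG content and the TET enzymes act on cytosines of CG dinucleotides. Each is the 300 bases from 250 before to 50 after a transcription start in RefSeq (GRCm38.p6, whereas the counts were made on mm9), written 5′ to 3′ with every CG in capitals.
Ccr6 (chr17:8235793-8236092, + strand, 2 CG): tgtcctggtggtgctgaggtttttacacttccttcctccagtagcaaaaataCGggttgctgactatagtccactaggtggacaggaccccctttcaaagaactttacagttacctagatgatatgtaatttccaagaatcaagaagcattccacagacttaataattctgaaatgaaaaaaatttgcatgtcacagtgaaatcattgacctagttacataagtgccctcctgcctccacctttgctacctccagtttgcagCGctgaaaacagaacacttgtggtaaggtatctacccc
Cd8a (chr6:71373177-71373476, + strand, 3 CG): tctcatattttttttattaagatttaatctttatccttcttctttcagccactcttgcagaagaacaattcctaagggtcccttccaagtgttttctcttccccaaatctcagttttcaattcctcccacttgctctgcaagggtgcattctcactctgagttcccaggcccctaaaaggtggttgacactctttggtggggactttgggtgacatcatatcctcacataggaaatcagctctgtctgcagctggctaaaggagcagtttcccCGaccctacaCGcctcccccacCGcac
Plagl1 (chr10:13090582-13090881, + strand, 26 CG): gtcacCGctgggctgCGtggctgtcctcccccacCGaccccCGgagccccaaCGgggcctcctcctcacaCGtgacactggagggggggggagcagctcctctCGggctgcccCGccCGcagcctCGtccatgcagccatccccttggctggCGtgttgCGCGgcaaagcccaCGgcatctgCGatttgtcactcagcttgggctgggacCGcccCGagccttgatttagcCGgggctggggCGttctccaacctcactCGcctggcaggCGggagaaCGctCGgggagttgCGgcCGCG
Kit (chr5:75574737-75575036, + strand, 20 CG): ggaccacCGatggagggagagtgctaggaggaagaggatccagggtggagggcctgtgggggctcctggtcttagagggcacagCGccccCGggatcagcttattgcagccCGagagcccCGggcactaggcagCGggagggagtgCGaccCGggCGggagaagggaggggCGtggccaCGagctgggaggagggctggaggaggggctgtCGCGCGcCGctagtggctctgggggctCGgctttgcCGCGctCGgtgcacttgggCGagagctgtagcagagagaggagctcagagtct
Ccr6 has another RefSeq start whose window holds 10 CG, and Kit another whose window holds 21. A RefSeq promoter window was matched for 9088 of the 11287 genes tested, 390 of the 487 higher and 303 of the 364 lower genes, taking the first listed start. CG reads the same on both strands and was counted once. The median count of CG was 21 over all matched genes (quartiles 14 and 29), 15 for higher genes (quartiles 7 and 26) and 23 for lower genes (quartiles 14 and 32). Windows with fewer than 5 CG made up 6.71% of all, 13.6% of the higher and 9.9% of the lower genes. These shares varied with level. Under 10 CPM they were 13.6% of all, 14.0% of the higher and 17.3% of the lower genes. From 10 to 50 CPM they were 4.67%, 16.4% and 9.47%, and at 50 CPM or more 4.67%, 10.6% and 5.51%. Among genes at 50 CPM or more the medians were 23 for all, 19 for higher and 24 for lower genes. Methylation of these windows was not analysed here, and the difference in CG content was not tested.

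**Figure D2:**
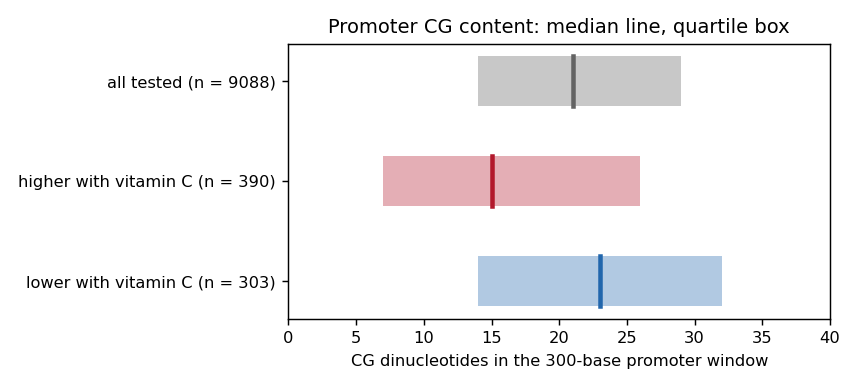
Number of CG dinucleotides in the 300-base promoter window for all tested genes and for genes higher or lower with vitamin C; the box spans the quartiles and the line is the median. The median is 15 for higher genes, below the 21 of all genes, and 23 for lower genes.

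Foxp3 and other genes of the Treg core were higher with vitamin C. Of 30 tested members of the Treg core list, 8 rose, 0 fell and 22 did not pass, with a median log2 fold change of 0.25. The 8 made up 26.7%, against 4.31% higher over all genes. Without TGFb plus retinoic acid library 2 or vitamin C library 1, 5 rose. Foxp3 was counted at 749.6 and 620.1 CPM without vitamin C and at 959 and 846 CPM with it (0.40 ± 0.09, edgeR, adjusted p = 0.0143). Ikzf2, which encodes Helios, was counted at 46.1 and 42.3 CPM without vitamin C and at 103 and 91.3 CPM with it and rose 2.19-fold (1.13 ± 0.14, adjusted p = 8.53e-05). Ebi3, a subunit of interleukin 35, was counted at 19.9 and 18.3 CPM without vitamin C and at 45.4 and 39.2 CPM with it (1.15 ± 0.12). Nrp1, a co-receptor marking thymic Treg cells (0.52 ± 0.13), and Itgae, the CD103 integrin chain (1.02 ± 0.27), also rose. The groups did not overlap in these 5 genes, all of which had passed. Of 14 tested effector Treg genes, 5 rose, 1 fell and 8 did not pass (42.9% called, against 7.54% of all genes). Ccr8, a chemokine receptor of tissue Treg cells, was counted at 6.37 and 6.02 CPM without vitamin C and at 22.1 and 17.8 CPM with it (1.68 ± 0.25), and the transcription factor gene Myb rose 1.78-fold. Gata3, a transcription factor of Th2 and tissue Treg cells, was the 1 that fell (-0.37 ± 0.09). Il2ra (log2 fold change 0.26 ± 0.08, adjusted p = 0.0841), Ctla4 (0.33 ± 0.15, adjusted p = 0.214) and Tnfrsf18 (-0.17 ± 0.15), the genes for CD25, CTLA-4 and GITR, did not pass. Among the Treg genes named here that passed, the call of Gata3 was lost when any 1 of the 4 libraries was left out. The calls of Foxp3, Nrp1 and Itgae were lost without TGFb plus retinoic acid library 2 and without vitamin C library 1. In an edgeR fit of the 4 libraries alone, where no other group entered the spread, Foxp3, Nrp1 and Gata3 were not called. Nrp1 and Gata3 were not called in the 8 iTreg libraries alone either. Itgae was not called in DESeq2, and neither Itgae nor Nrp1 in limma on log2(FPKM + 0.1). Ikzf2, Ebi3, Ccr8 and Myb kept their calls under all 14 alternatives.

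Transcripts of the TET enzymes and of their relatives were asked about because vitamin C acts on the enzymes. Of 24 tested genes of the TET and DNA methylation machinery, 3 rose, 2 fell and 19 did not pass, and their median was 0.02. The share called was 20.8%, against 7.54% of all genes. Tet1 was counted at 4.12 and 3.46 CPM without vitamin C and at 6.94 and 6.64 CPM with it (0.84 ± 0.24, edgeR, adjusted p = 0.0452). That call was lost under 9 of 14 alternatives, among them without TGFb plus retinoic acid library 1 (adjusted p = 0.0669), without TGFb plus retinoic acid library 2 (adjusted p = 0.222), without vitamin C library 1 (adjusted p = 0.146) and without vitamin C library 2 (adjusted p = 0.123). Tet2 (0.08 ± 0.16) and Tet3 (0.09 ± 0.15) did not pass, nor did the methyltransferase genes Dnmt1 (-0.21 ± 0.11) and Dnmt3a (-0.02 ± 0.10). Dnmt1 was called in edgeR in the 4 libraries with the replicate number as a block (adjusted p = 0.0211), but not in the 12 with it. Uhrf1, which directs DNMT1 to newly copied DNA, fell (-0.43 ± 0.08), and Zbtb38, a methyl-CG binding factor, rose (0.58 ± 0.12). Without vitamin C library 2 the Uhrf1 call was lost (adjusted p = 0.0833), and without vitamin C library 1 the Zbtb38 call (adjusted p = 0.0672). Of 30 tested genes for other iron and 2-oxoglutarate dependent dioxygenases, such as the histone demethylase genes Kdm3b and Kdm5c, 0 passed in edgeR, 8 had an unadjusted p under 0.05, and the median was 0.03. DESeq2 called 1 and limma 0. Across the 14 alternatives, up to 9 of them were called higher and up to 3 lower. Slc23a2, a sodium-dependent vitamin C transporter gene, was counted at 73.1 and 56.9 CPM without vitamin C and at 82 and 70.1 CPM with it and did not pass (0.22 ± 0.11, adjusted p = 0.271). It was called in edgeR in the 4 libraries with the replicate number as a block (adjusted p = 0.0106).

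Of 14 tested retinoic acid response genes 1 rose, 1 fell and 12 did not pass, with a median of 0.04. The share called was 14.3%, against 7.54% of all genes. Ccr9, the gut homing receptor induced by retinoic acid, was counted at 399 and 366 CPM without vitamin C and at 650.4 and 692 CPM with it, and rose 1.75-fold (0.81 ± 0.10, edgeR, adjusted p = 0.000149). In iTreg made without retinoic acid it stood at 0.233 CPM with TGFb alone and 0.368 CPM with vitamin C. Rxra, a partner receptor of the retinoic acid receptors, fell (-0.53 ± 0.14), a call lost without TGFb plus retinoic acid library 1 (adjusted p = 0.203) and without vitamin C library 2 (adjusted p = 0.221). Those that did not pass included Cyp26b1 (-0.09 ± 0.15), Dhrs3 (-0.12 ± 0.23) and Rara (0.14 ± 0.10). Of 25 tested TGFb response genes, 5 rose, 4 fell and 16 did not pass (36.0% called). Without TGFb plus retinoic acid library 2, 0 rose and 1 fell, without vitamin C library 1, 1 and 1, and without vitamin C library 2, 4 and 2. The co-receptor gene Tgfbr3 (1.12 ± 0.23), the transcription factor gene Bhlhe40 (0.82 ± 0.16) and Itgae rose, while the pathway inhibitor genes Smad7 (-0.45 ± 0.12) and Tgif1 (-0.62 ± 0.14) fell. Calls were lost without TGFb plus retinoic acid library 1 for Bhlhe40 (adjusted p = 0.0653) and Smad7 (adjusted p = 0.162); without TGFb plus retinoic acid library 2 for Tgfbr3 (adjusted p = 0.0531), Bhlhe40 (adjusted p = 0.059) and Tgif1 (adjusted p = 0.0639); without vitamin C library 1 for Tgfbr3 (adjusted p = 0.0745) and Tgif1 (adjusted p = 0.1); without vitamin C library 2 for Bhlhe40 (adjusted p = 0.0556) and Smad7 (adjusted p = 0.222).

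Of 25 tested homing receptors, 7 rose, 5 fell and 13 did not pass (48.0% called, against 7.54% of all genes), with a median of 0.04. Without TGFb plus retinoic acid library 2, 4 rose and 1 fell, without vitamin C library 1, 5 and 1, and without vitamin C library 2, 7 and 1. Besides Ccr6, Ccr8 and Ccr9, the rises were of Cxcr5, Cxcr3, Ccr4 and Itgae. Cxcr5, which guides cells to B cell follicles, was counted at 25.3 and 20.4 CPM without vitamin C and at 69.4 and 66.8 CPM with it (1.57 ± 0.18, edgeR, adjusted p = 4.35e-05). Cxcr3, a receptor of inflamed tissue, was near the limit of detection, at 1.12 and 0.395 CPM without vitamin C and at 4.28 and 2.07 CPM with it (2.01 ± 0.47). Ccr4, a skin homing receptor, rose 1.64-fold (0.71 ± 0.14). The falls included Ccr2 and, picked here after their values were seen, the lymph node entry and exit genes Ccr7 (-0.32 ± 0.08) and S1pr1 (-0.85 ± 0.08) and S1pr4 (-0.40 ± 0.10). The gut integrin genes Itgb7 (-0.10 ± 0.08) and Itga4 (0.42 ± 0.25) did not pass, and Gpr15, a colon homing receptor, was counted at 0.187 and 0.197 CPM without vitamin C and at 0.666 and 0.332 CPM with it. The test no longer passed without TGFb plus retinoic acid library 2 for Cxcr3 (adjusted p = 0.153), Ccr4 (adjusted p = 0.0609), Itgae (adjusted p = 0.225), Ccr2 (adjusted p = 0.123), Ccr7 (adjusted p = 0.0726) and S1pr4 (adjusted p = 0.102); without vitamin C library 1 for Cxcr3 (adjusted p = 0.175), Itgae (adjusted p = 0.179), Ccr2 (adjusted p = 0.11), Ccr7 (adjusted p = 0.0829) and S1pr4 (adjusted p = 0.109); without vitamin C library 2 for Ccr2 (adjusted p = 0.164), Ccr7 (adjusted p = 0.139) and S1pr4 (adjusted p = 0.123).

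Of 25 tested genes of naive and memory T cells, 11 fell, 2 rose and 12 did not pass, and the median was -0.33. The share called was 52.0%, against 7.54% of all genes, the largest among lists with 10 or more tested members. The falls and rises numbered 6 and 0 without TGFb plus retinoic acid library 2, 7 and 0 without vitamin C library 1, and 6 and 2 without vitamin C library 2. Igfbp4, a member of the list, was counted at 914 and 1013 CPM without vitamin C and at 505 and 537 CPM with it (-0.89 ± 0.10, edgeR, adjusted p = 5.13e-05). Its mean was 1204 CPM in naive cells and 1782 CPM in Th0 cells, so it was not particular to naive cells here. Il7r, the receptor of the survival cytokine interleukin 7, was counted at 78.7 and 55.2 CPM without vitamin C and at 42.1 and 32.2 CPM with it (-0.85 ± 0.19). Klf2 (-0.49 ± 0.12) and Satb1 (-0.84 ± 0.09), transcriptional regulators named here after their values were seen, fell as well. The test was no longer passed without TGFb plus retinoic acid library 1 for Il7r (adjusted p = 0.085) and Klf2 (adjusted p = 0.111); without TGFb plus retinoic acid library 2 for Klf2 (adjusted p = 0.117); without vitamin C library 2 for Il7r (adjusted p = 0.123) and Klf2 (adjusted p = 0.216). Of the short helper lineage lists, 42.9% of 7 tested Th17 genes and 66.7% of 6 Th2 genes passed, against 7.54% of all genes. Of the Th17 genes 3 rose and 0 fell. Il17a, Il2, Il10 and Ifng were at 0 in all 4 libraries, which allows up to 3 counts in each. Of 16 tested Th1 genes, 1 rose and 0 fell, of the Th2 genes 3 rose and 1 fell (1 and 0 without TGFb plus retinoic acid library 2), and of 13 follicular helper genes 2 rose and 0 fell. Of 13 cytotoxic genes 0 passed in edgeR, 5 had an unadjusted p under 0.05, DESeq2 called 0 and limma 1 or 2 by pseudocount, and over the 14 alternatives up to 2 were higher and up to 4 lower.

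Of 25 tested genes for costimulatory and inhibitory receptors and their ligands, 7 rose, 1 fell and 17 did not pass (32.0% called, against 7.54% of all genes). The counts were 3 and 0 without TGFb plus retinoic acid library 2, and 4 and 1 without vitamin C library 2. Pdcd1lg2, the PD-L2 ligand gene, was counted at 5.72 and 5.63 CPM without vitamin C and at 17.5 and 17.2 CPM with it (1.61 ± 0.18, edgeR, adjusted p = 4.35e-05), and its receptor gene Pdcd1 was counted at 7.22 and 7.5 CPM without vitamin C and at 13.7 and 15.8 CPM with it (1.00 ± 0.19). Cd80, a ligand of CD28 and CTLA-4, rose 1.82-fold (0.86 ± 0.16), and the inhibitory receptor gene Cd200r1 fell 2.61-fold (-1.38 ± 0.28). The CD30 ligand gene Tnfsf8, in the cytokine list, was counted at 32.1 and 33.4 CPM without vitamin C and at 12.2 and 11.6 CPM with it and fell 2.75-fold (-1.46 ± 0.12). Of 54 interferon response genes, 6 rose (11.1%, against 4.31% of all genes), 0 fell and 48 did not pass, with a median of 0.17. They included the membrane protein gene Ifitm3, counted at 41 and 51.5 CPM without vitamin C and at 102 and 100.4 CPM with it (1.13 ± 0.16), and the guanylate binding protein genes Gbp3 (0.62 ± 0.14) and Gbp5 (0.84 ± 0.17). Calls were lost without TGFb plus retinoic acid library 1 for Gbp3 (adjusted p = 0.0618); without TGFb plus retinoic acid library 2 for Cd80 (adjusted p = 0.0542), Cd200r1 (adjusted p = 0.078) and Gbp5 (adjusted p = 0.0764); without vitamin C library 1 for Cd200r1 (adjusted p = 0.0647); without vitamin C library 2 for Gbp3 (adjusted p = 0.118). The interferon list held 2 higher genes in place of 6 without either TGFb plus retinoic acid library or without vitamin C library 2.

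Of the genes of DNA replication and mitosis 0 rose and 6 of each list fell. These were 14.6% and 15.8% of the tested members, against 3.22% lower over all genes. All 41 tested DNA replication genes had a log2 fold change below 0, with a median of -0.25. The same held for all 38 mitosis genes, with a median of -0.36. Among the 10920 genes also tested in the ex vivo Treg cells, 52.2% had a log2 fold change by vitamin C below 0. Genes of a list are not independent replicates. Rrm2, a subunit of ribonucleotide reductase, was counted at 211 and 224 CPM without vitamin C and at 166 and 154 CPM with it (-0.45 ± 0.09, edgeR, adjusted p = 0.00667), and Cdk1, the mitotic kinase, at 119 and 135 CPM without vitamin C and at 87.3 and 92.7 CPM with it (-0.49 ± 0.10). Mki67, the proliferation antigen Ki-67, did not pass (-0.29 ± 0.13, adjusted p = 0.209). It was called in edgeR in the 4 libraries with the replicate number as a block (adjusted p = 0.000846), but not in the 12 with it. Of 24 glycolysis genes, 5 fell (20.8%) and 0 rose, with a median of -0.18. Pgam1, phosphoglycerate mutase, was counted at 286 and 294 CPM without vitamin C and at 206 and 198 CPM with it (-0.52 ± 0.10), and the lactate transporter gene Slc16a1 fell 1.37-fold (-0.46 ± 0.08). Of 38 genes of the Myc and ribosome biogenesis list 5 fell, of 20 chaperones 3, and of 31 genes for the ATF4 response and serine and tRNA charging 4, with 0 rises in each. Tfrc, the transferrin receptor that imports iron, was counted at 951 and 841 CPM without vitamin C and at 579 and 519 CPM with it (-0.71 ± 0.08, adjusted p = 6.54e-05). These counts varied with the libraries used, from 1 to 28 lower of the DNA replication genes and from 0 to 37 of the mitosis genes over the 14 alternatives. Without TGFb plus retinoic acid library 1, 9 and 10 of them were lower, without its library 2, 2 and 0, without vitamin C library 1, 4 and 0, and without vitamin C library 2, 2 and 1. The Myc and ribosome list ran from 0 to 28 lower genes over the alternatives, the chaperones from 0 to 7 and the ATF4 list from 0 to 8. Without TGFb plus retinoic acid library 1 these 3 lists held 5, 3 and 1 lower genes, without its library 2, 1, 0 and 2, without vitamin C library 1, 0, 0 and 1, and without vitamin C library 2, 1, 1 and 0. Lower glycolysis genes numbered 3 without TGFb plus retinoic acid library 2 or vitamin C library 1 and 2 without vitamin C library 2. Single calls were lost without TGFb plus retinoic acid library 2 for Cdk1 (adjusted p = 0.0791); without vitamin C library 1 for Cdk1 (adjusted p = 0.0782); without vitamin C library 2 for Rrm2 (adjusted p = 0.0768). Of 25 cholesterol synthesis genes, 32 proteasome genes and 15 fatty acid synthesis genes 0 passed in edgeR, DESeq2 or limma, and 0, 3 and 1 of them had an unadjusted p under 0.05 in edgeR. Over the 14 alternatives up to 6, 11 and 3 of them were lower and up to 1 in each list higher, and without TGFb plus retinoic acid library 1, 0, 7 and 1 were lower.

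Of 14 tested imprinted genes 4 rose, 1 fell and 9 did not pass (35.7% called, against 7.54% of all genes). Besides Igf2, H19 and Plagl1 the rise was of Peg13 (0.77 ± 0.14). Dlk1, a Notch-like ligand gene, was at 5 and 8 counts without vitamin C and at 0 in both libraries with it, at least 4.7-fold lower against a floor of 3 counts over the group. Of 9 tested collagen and matrix genes 4 rose and 0 fell, and 1 rose without TGFb plus retinoic acid library 2 and 2 without vitamin C library 2. The 4 that rose with all libraries made up 44.4% of the 9, against 4.31% higher over all genes. Lamc1, a laminin chain, was counted at 237 and 167 CPM without vitamin C and at 389 and 289 CPM with it (0.75 ± 0.17, edgeR, adjusted p = 0.0196), and Timp2, a metalloproteinase inhibitor, at 59.7 and 52.1 CPM without vitamin C and at 94.7 and 83.7 CPM with it (0.67 ± 0.12). Col1a2, a chain of type I collagen, was at 0 in both libraries without vitamin C and at 4 and 8 counts with it, at least 3.69-fold higher against the same floor. Calls were lost without TGFb plus retinoic acid library 1 for Col1a2 (adjusted p = 0.0995); without TGFb plus retinoic acid library 2 for Dlk1 (adjusted p = 0.0948), Lamc1 (adjusted p = 0.116) and Col1a2 (adjusted p = 0.142); without vitamin C library 1 for Dlk1 (adjusted p = 0.0806) and Lamc1 (adjusted p = 0.121); without vitamin C library 2 for Dlk1 (adjusted p = 0.1) and Col1a2 (adjusted p = 0.153). Of 7 tested germline genes 0 passed in edgeR or in any of the 14 alternatives, DESeq2 among them, and 0 had an unadjusted p under 0.05.

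Markers of other cell types moved with the groups as follows. Of 8 immature thymocyte markers 5 were tested and 4 rose. Cd24a was counted at 71 and 64.7 CPM without vitamin C and at 213 and 216 CPM with it (1.66 ± 0.20, edgeR, adjusted p = 0.000463), Dntt, the polymerase that diversifies antigen receptors, at 16 and 16 CPM without vitamin C and at 24.7 and 29.1 CPM with it (0.75 ± 0.14), and Cd8b1, the CD8 beta chain, at 8.06 and 7.8 CPM without vitamin C and at 19.1 and 19.8 CPM with it (1.29 ± 0.14). The list summed to 108 and 102 CPM without vitamin C and 287 and 297 CPM with it, with Rag1 and Ptcra at 0 in all 4 libraries. Of 7 CD8 T markers 5 were tested and 2 rose, Cd8a and Cd8b1, and the list summed to 145 and 127 CPM without vitamin C and 156 and 159.5 CPM with it, with Klrc1 and Gzmk at 0. Of 17 myeloid and dendritic markers 7 were tested and 1 rose, Adgre1. Their sum was 70.8 and 84.5 CPM without vitamin C and 94.2 and 96.7 CPM with it, and Lyz1, Lyz2, Csf1r, Itgax and Cd14 were at 0. The B cell list summed to 6.09 and 5.73 CPM without vitamin C and 11.5 and 14.3 CPM with it, with Ms4a1 and Pax5 at 0 and Cd79b higher (1.08 ± 0.24). Mast cell markers summed to 69.6 and 54.3 CPM without vitamin C and 12.9 and 11.3 CPM with it, nearly all of it Kit, with Mcpt4, Fcer1a and Ms4a2 at 0. The natural killer and innate lymphoid list summed to 135 and 136 CPM without vitamin C and 65.4 and 68.4 CPM with it, with Kit and Id2 (-0.42 ± 0.12) lower and Ncr1 and Klrb1c at 0. Erythroid genes summed to 38.5 and 70.3 CPM without vitamin C and 8.56 and 15.8 CPM with it, nearly all of it Hba-a2, with Slc4a1 at 0. The part of other cells in the results was not tested. Calls were lost without TGFb plus retinoic acid library 1 for Cd79b (adjusted p = 0.0534); without TGFb plus retinoic acid library 2 for Cd79b (adjusted p = 0.0609) and Id2 (adjusted p = 0.372); without vitamin C library 1 for Id2 (adjusted p = 0.247); without vitamin C library 2 for Cd79b (adjusted p = 0.122), Id2 (adjusted p = 0.101) and Dntt (adjusted p = 0.0649).

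**Figure D3:**
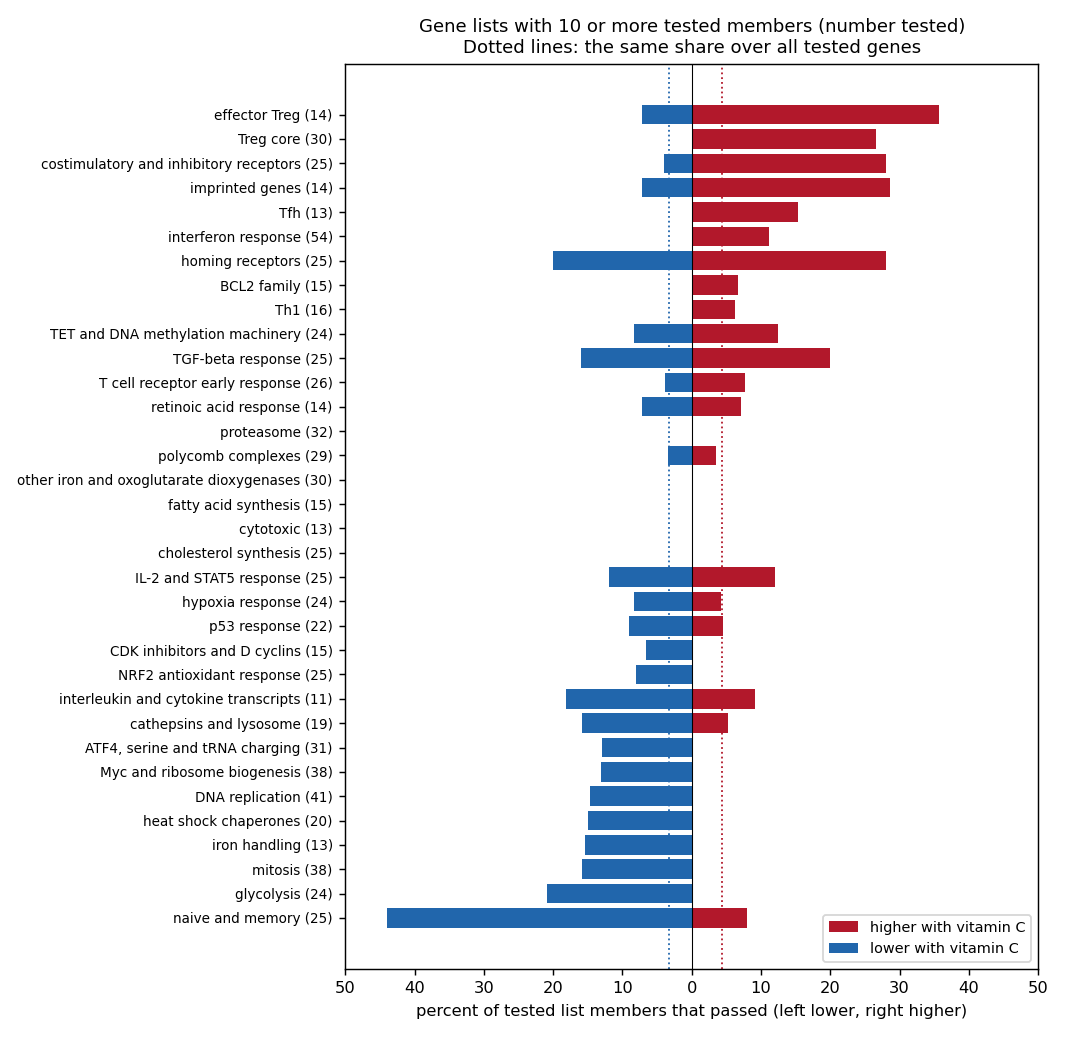
Share of the tested members of each gene list that passed, in percent, higher to the right in red and lower to the left in blue, for the lists with 10 or more tested members, the number in brackets. The dotted lines mark the share over all tested genes, 4.31% higher and 3.22% lower; the naive and memory list reaches furthest to the left and the effector Treg list furthest to the right.

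The same question was asked with and without retinoic acid in the fit of all 12 libraries. Vitamin C added to TGFb alone called 1900 genes (16.8%), 998 higher (8.84%) and 902 lower (7.99%). Of the 851 genes called with retinoic acid, 823 had the same sign without it and 593 were called in both, which is 361 of the 487 higher and 231 of the 364 lower genes, plus Ctss with opposite signs. The 361 made up 74.1% of the higher genes here and 36.2% of those higher without retinoic acid, and the 231 made up 63.5% and 25.6% of the lower genes. Across the 11287 genes the log2 fold changes had a Pearson r of 0.65 and a Spearman rho of 0.67, given as a description, since genes are not independent replicates. The median size of the change of the 851 genes was 0.70 on the log2 scale with retinoic acid and 0.58 without it, in genes chosen for their change with it. In all, 2 genes passed the test of the difference between both effects (0.0177%), while 564 had an unadjusted p under 0.05 and DESeq2 called 16.

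Both genes had a lower effect with retinoic acid. Ctss, which encodes the lysosomal protease cathepsin S, was counted at 67.3 and 67.5 CPM without vitamin C and at 47 and 43.1 CPM with it, and fell 1.5-fold (-0.58 ± 0.10, edgeR, adjusted p = 0.00206). With TGFb alone it was counted at 131 and 148 CPM without vitamin C and at 214 and 212 CPM with it, and rose 1.53-fold (0.61 ± 0.09). The difference of its effects was -1.20 ± 0.14 (adjusted p = 0.00314). Itgb1, the integrin beta 1 chain, was counted at 329 and 311 CPM without vitamin C and at 335 and 304 CPM with it, so that the groups overlapped. With TGFb alone it was counted at 389 and 396 CPM without vitamin C and at 815 and 739.9 CPM with it, a 1.98-fold rise (0.99 ± 0.09), and the difference was -0.99 ± 0.13 (adjusted p = 0.00649). Without 1 library the Itgb1 difference was not called in 3 cases, without vitamin C plus retinoic acid library 2 (adjusted p = 0.0569), TGFb library 1 (adjusted p = 0.0727) and TGFb plus vitamin C library 1 (adjusted p = 0.0638), while the Ctss difference was called without each of the 8. Other genes did not pass in this fit. Adgre1 rose by 3.05 ± 0.28 with and 0.91 ± 0.25 without retinoic acid (difference adjusted p = 0.0888), Itgae by 1.02 ± 0.27 against a value of 0.05 ± 0.42 that did not pass (difference adjusted p = 1), and Nrp1 by 0.52 ± 0.13 against 1.39 ± 0.13 (difference adjusted p = 0.166). The differences of Adgre1 and Nrp1 did pass in DESeq2 (adjusted p = 0.00953 and 0.0256) and in edgeR with no count filter (adjusted p = 0.00484 and 0.0463). That of Adgre1 also passed without TGFb library 2 (adjusted p = 0.0199), and that of Nrp1 without TGFb plus retinoic acid library 2 (adjusted p = 0.0483). Treg core genes rose in 8 of 30 cases with and 16 of 30 without retinoic acid, with medians of 0.25 and 0.49. None of the 30 passed the test of the difference. Over all genes, 4.31% rose and 3.22% fell with retinoic acid, against 8.84% and 7.99% without it. Of 25 cholesterol synthesis genes 0 passed with and 18 fell without retinoic acid, with medians of -0.03 and -0.50, and 0 of the 25 passed the test of the difference in edgeR or DESeq2, while 15 had an unadjusted p under 0.05.

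**Figure D4:**
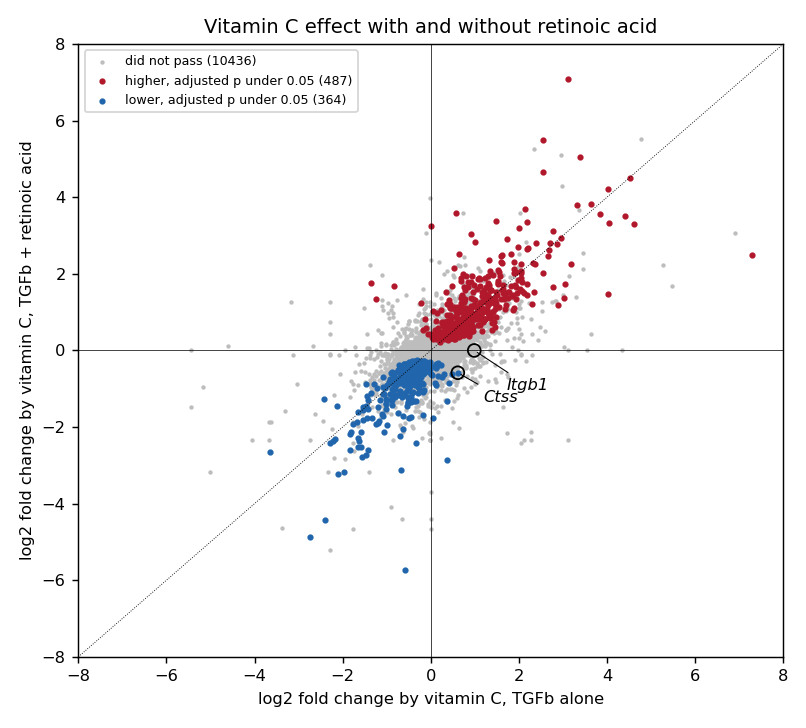
Log2 fold change by vitamin C for each of 11287 genes, without retinoic acid on the horizontal and with it on the vertical axis; red and blue genes passed with retinoic acid and the dotted line marks equal effects. Most coloured genes have the same sign in both; the circled genes Ctss and Itgb1 lie below the line and are the 2 that passed the test of the difference.

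The genes changed by vitamin C were then looked up in Tet2/3-deficient Treg cells, in libraries that share no sample with the iTreg. There 1953 of 11679 genes tested were higher (16.7%) and 1847 lower (15.8%) than in control Treg cells. Of 10920 genes tested in both, 16.2% were lower and 16.4% higher in Tet2/3-deficient cells. Of the 451 genes higher with vitamin C among them, 168 (37.3%) were lower and 39 (8.65%) higher in Tet2/3-deficient cells. Of the 353 genes lower with vitamin C, 153 (43.3%) were higher and 39 (11%) lower. Seen from the other side, vitamin C raised 9.5% of the 1768 genes lower in Tet2/3-deficient cells, against 4.13% of all, and lowered 8.54% of the 1792 genes higher in them, against 3.23% of all. Across the 10920 genes the Pearson r was -0.30 and the Spearman rho -0.36, again as a description across genes. Without the DNA replication and mitosis lists, 43.4% of the genes lower with vitamin C were higher in Tet2/3-deficient cells. The 37.3% could not change in this way, since 0 members of those lists rose with vitamin C. Over the 14 alternatives the shares ran from 35.6% to 43.3% for the higher genes and from 33.3% to 45.9% for the lower. Among genes changed by at least 1 on the log2 scale, 31.9% of the higher genes were lower and 13.8% higher in Tet2/3-deficient cells, and 39.3% of the lower genes were higher and 8.33% lower.

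Single genes went both ways. Plagl1 (-2.05 ± 0.12 in Tet2/3-deficient against control cells, edgeR, adjusted p = 5.33e-07), Ccr6 (-2.17 ± 0.09), Cd8a (-2.14 ± 0.30), Cd8b1 (-2.97 ± 0.13), Ebi3 (-1.12 ± 0.15), Nrp1 (-1.12 ± 0.08), Ikzf2 (-0.57 ± 0.07) and Foxp3 (-0.26 ± 0.07) rose with vitamin C and were lower in the deficient cells. Pde3b (2.19 ± 0.31), Tfrc (0.96 ± 0.10), Aqp9 (1.05 ± 0.32), Lilrb4a (1.15 ± 0.36) and Pim2, a survival kinase gene (1.09 ± 0.08), fell with vitamin C and were higher there. Against this pattern, Cdh1 (2.99 ± 0.30) and Itgae (0.93 ± 0.11) rose in both comparisons. The vitamin C calls of these genes were lost without TGFb plus retinoic acid library 1 for Pde3b (adjusted p = 0.074); without TGFb plus retinoic acid library 2 for Foxp3 (adjusted p = 0.111), Nrp1 (adjusted p = 0.199), Itgae (adjusted p = 0.225), Pde3b (adjusted p = 0.0597) and Pim2 (adjusted p = 0.0633); without vitamin C library 1 for Foxp3 (adjusted p = 0.136), Nrp1 (adjusted p = 0.235) and Itgae (adjusted p = 0.179); without vitamin C library 2 for Pde3b (adjusted p = 0.0998) and Pim2 (adjusted p = 0.0591). Other genes strongly changed by vitamin C did not pass in the deficient cells, among them Kit (0.18 ± 0.23), Car5b (0.22 ± 0.22), Igf2 (-0.49 ± 0.25) and Adgre1 (0.82 ± 0.71). The ex vivo cells differ from the iTreg in age, origin and culture as well as in genotype, and these cannot be told apart in a comparison between both experiments.

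**Figure D5:**
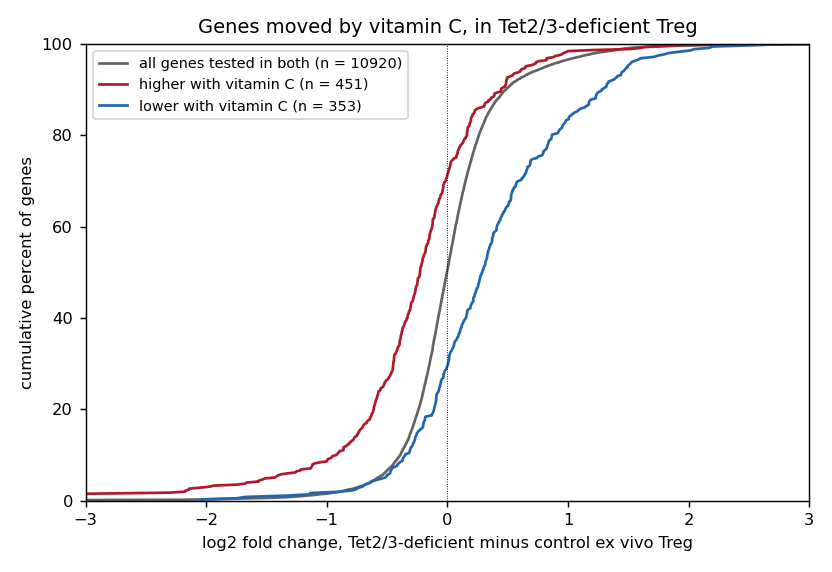
Cumulative percent of genes by their log2 fold change in Tet2/3-deficient against control ex vivo Treg cells, on an axis drawn from -3 to 3; grey is all 10920 genes tested in both, red the 451 genes higher and blue the 353 lower with vitamin C. Below 0 lie 71.2% of the red genes, 50.7% of all and 29.5% of the blue genes.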

How the data were processed

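RNA was made into stranded mRNA libraries (TruSeq), per the labels' protocols. The authors deposited read counts per gene and FPKM values (fragments scaled to transcript length and library size) on mm9. Per the submitters' processing notes the tools include TopHat2 2.1.1, an aligner, with bcl2fastq 2.20.0.442, Picard 2.5.0, edgeR 3.26.6 under R 3.6.1, Trim Galore 0.4.2 and SAMtools 1.7. The counting tool, its strand setting and the annotation release are not given in the sources used here, so antisense or overlapping genes cannot be told apart.

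The deposited counts of the 12 naive, Th0 and iTreg libraries (6 groups, 6 residual degrees of freedom) were fitted together in edgeR 4.0.16 (R 4.3.3) with filterByExpr, TMM factors, robust quasi-likelihood tests and Benjamini-Hochberg adjustment at 0.05, and the 8 ex vivo libraries in a fit of their own. The SE is the log2 fold change over the square root of F. The difference of effects was the interaction contrast. Genes without a symbol (92 of 21761, at most 0.0468% of counts) were kept by Entrez ID. DESeq2 1.42.0, and limma 3.58.1 on log2(FPKM + 1) and log2(FPKM + 0.1), were alternatives. The 8 iTreg libraries alone were added after seeing the data. The code was checked on simulated data.

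Named genes are a followed list, the 15 largest changes in each direction at 10 CPM or more, up to 4 called members of each list, or the 2 at the highest level in a list with fewer than 2 called, differences of effects that passed, and marker genes that passed; others are said to be chosen after their values were seen. The comparison, the lists and the rule were chosen with earlier results of these data known. Totals were 9647669 to 11640223 counts in the 12 libraries and 13397602 to 17672302 ex vivo. Floors cover counting error only. Some named genes and markers are not reported here.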

Additional observations from a re-analysis of the deposited data

Results flagged for a closer look

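The effect of vitamin C differed with and without retinoic acid in 2 genes by the interaction term of edgeR's quasi-likelihood fit. For Ctss the difference was -1.20 on the log2 scale (adjusted p = 0.00314), with a fall where retinoic acid was present and a rise where it was not. For Itgb1 it was -0.99 (adjusted p = 0.00649), with no call where retinoic acid was present and a rise where it was not.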

How the results depend on the processing

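With retinoic acid, the 851 calls became 286 at a required log2 fold change of 1, 487 in the 4 libraries alone and 424 to 899 without 1 library. Higher genes made up 57.2% of calls, 64.5% in the 4 libraries alone and up to 70.8% without 1 library. Without retinoic acid, the 1900 calls became 771 to 1001 without 1 library. For the difference of effects, the 2 calls became 1 at a required log2 fold change of 1, 25 with no count filter, 16 in DESeq2, 23 and 7 in limma with a pseudocount of 1 and 0.1, and 1 to 11 without 1 library. The count for Tet2/3-deficient cells stayed within 1.5 times under its 13 alternatives, though limma on FPKM moved the share of higher genes from 51.4% to 62.3% and 62.2%. With the replicate block, calls with retinoic acid were 1363 in 12 libraries, 2821 in the 4 alone and 1975 in the 8 iTreg libraries, and differences of effects were 26 in 12 and 84 in 8, among them Adgre1 (adjusted p = 0.0172 and 0.0114) and Nrp1 (adjusted p = 0.0402 and 0.0301) in edgeR. Deviations of same-numbered libraries correlated at 0.51 between both groups with retinoic acid and at 0.25 to 0.51 over all pairs of iTreg groups, but with 2 numbers and no label of a shared source they were not taken as pairs. Of 162 named genes tested, 123 were called, 49 of them under all 14 alternatives, and none of the 123 changed sign. Of the 39 named genes not called, 24 were not called under any alternative. Among the 39, 14 changed sign in a setting that did not call them either. A required fold change lowers counts by construction; the other causes were not tested. With 2 libraries a group, small changes were not detectable.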

Other observations

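Other gene lists held calls in 1 direction or in both, against a background of 7.54% of all genes. Of 25 tested IL-2 and STAT5 response genes, 3 rose and 3 fell (24.0%). Xbp1, a factor of the unfolded protein response, was counted at 217 and 245 CPM without vitamin C and at 396 and 392 CPM with it (0.77 ± 0.10, edgeR, adjusted p = 0.000234), and Socs2, a feedback inhibitor of cytokine signalling, rose 1.39-fold (0.47 ± 0.08). Of 26 early T cell receptor response genes, 2 rose and 1 fell (11.5%). Dusp1, a MAP kinase phosphatase gene, was counted at 42.6 and 35.6 CPM without vitamin C and at 80.2 and 89.4 CPM with it (1.11 ± 0.19), a call lost without TGFb plus retinoic acid library 2 (adjusted p = 0.0824). All 8 tested MHC class II genes had a log2 fold change above 0 and 1 passed, H2-Ob, part of an antigen loading regulator, counted at 15.3 and 18.5 CPM without vitamin C and at 26.8 and 29.2 CPM with it (0.73 ± 0.13). Among the 10920 genes also tested in the ex vivo Treg cells, 47.8% had a log2 fold change by vitamin C above 0. Of 19 cathepsin and lysosome genes, 1 rose and 3 fell (21.1%). Lgmn, which encodes the lysosomal protease legumain, was counted at 3.75 and 5.23 CPM without vitamin C and at 1.62 and 1.08 CPM with it (-1.74 ± 0.30). Of 29 polycomb genes 1 rose and 1 fell (6.9%, near the background). The hypoxia response list had 1 rise and 2 falls among 24 genes, the p53 list 1 and 2 among 22, the NRF2 list 0 and 2 among 25, the BCL2 family 1 and 0 among 15, and the CDK inhibitors and D cyclins 0 and 1 among 15. Their shares called were 12.5%, 13.6%, 8.0%, 6.7% and 6.7%, the last 3 near the background.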
